A study of Homo sapiens with 6 samples.

Results

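The suppressor of cytokine signaling (SOCS) family and the PIM kinases were followed in K562 cells, a BCR-ABL-positive human leukemia line of erythroid character, in which the lncRNA-IUR-5 transcript was targeted by a short hairpin RNA. The 10 genes were CISH, SOCS1 to SOCS6 and PIM1 to PIM3. They were chosen by name, and their rows were found through RefSeq protein accessions, which gave 33 rows for the 10 genes out of 109018 rows and 19053 genes with a symbol. The study made stable cell lines with a lentiviral vector, either with a hairpin against the lncRNA (sh-IUR-5 cells; the sample labels call them sh-lncRNA-IIRX) or with a hairpin against luciferase (sh-luc cells, the control). Each group had 3 libraries from total RNA, described as independent groups of cells, and no drug treatment is named for either group. Each hairpin is represented by derived lines alone, so an effect of the hairpin and a difference between the lines cannot be told apart. The rows are protein accessions, so lncRNA-IUR-5 has no row and its depletion was not analysed here.

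CISH and several SOCS proteins form a negative feedback loop on cytokine signaling. Cytokine receptors activate JAK kinases, which phosphorylate STAT factors, and active STAT factors switch on CISH and several, not all, of the SOCS genes. The SOCS proteins bind phosphorylated receptors or JAK kinases through an SH2 domain and recruit a ubiquitin ligase through the C-terminal SOCS box. The PIM genes encode serine/threonine kinases that are active once made, and PIM1 is a known STAT5 target that promotes survival of hematopoietic cells. The libraries measure transcripts, and PIM protein and kinase activity were not measured in them. In BCR-ABL-positive cells STAT5 is active without a cytokine, and the study reports on STAT5 and lncRNA-IUR-5 in this setting.

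The hairpin target and a promoter of the set are shown because the former defines the groups and the latter carries the STAT motif searched for below. The sh-IUR-5 target occurred at 1 place in hg38, on the plus strand at chr11:95232933-95232953, within an exon of 1 annotated transcript of the LNCRNA-IUR gene. It occurred in 0 of the 39 annotated transcripts of the 10 genes. The palindromic motif TTCNNNGAA, which STAT5 is known to bind and which reads alike on both strands, was searched in the RefSeq promoters of GRCh38.p14, 300 bases each from 250 before to 50 after the start. Of 35116 promoters 7.66% held the motif at least once, and 7 held it at least 4 times. Entries were found for 8 of the 10 genes, and SOCS2 and SOCS5 had none. The CISH promoter, on the minus strand at chr3:50611775-50612024, held 4 copies, from -241 to -233, -230 to -222, -129 to -121 and -112 to -104 relative to the start. The promoter entries of the other 7 genes held none. The SOCS3 entries were chr17:78360876-78361175 and chr17:78359618-78359917. Neither covers the annotated start of SOCS3, at 78360077 on the minus strand, so the bases around that start were not searched. A match is a description of letters and not a measured binding site. In the lines below, capitals mark the motif copies, and the CISH sequence is the 250 bases before the start, 5′ to 3′ on the gene's strand.
sh-IUR-5 target: gctagtatcaggtttaaatag
CISH promoter: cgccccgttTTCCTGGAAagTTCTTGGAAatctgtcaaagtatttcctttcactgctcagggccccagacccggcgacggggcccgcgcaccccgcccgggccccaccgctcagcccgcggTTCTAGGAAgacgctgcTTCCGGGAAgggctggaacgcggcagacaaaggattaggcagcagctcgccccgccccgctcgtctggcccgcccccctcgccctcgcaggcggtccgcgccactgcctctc

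The libraries held 21023739 to 23320543 reads on rows in sh-luc cells and 24325122 to 31481109 in sh-IUR-5 cells. The erythroid markers of K562 were present in every library, with a summed level over 10 markers of 20509 to 22873 RPKM (read counts divided by row length and library total) in sh-luc cells and 16353 to 17028 RPKM in sh-IUR-5 cells. Relative to sh-luc cells 2 of these 10 markers rose and 6 fell. Those that fell included the globins HBZ (log2 fold change -0.93), HBE1 (-0.74), HBG1 (-0.60) and HBG2 (-0.58). The part of this difference in the results below was not tested. The 6 lymphoid and monocyte markers each lay under 1 RPKM in both groups, with a summed level of at most 1.71 RPKM, and MS4A1 was at 0. In such bulk samples, more cells of a type and more RNA per cell cannot be told apart.

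The first question was which of the 10 genes are expressed in these cells. Levels between genes were compared per length, as RPKM summed over the rows of a gene. In sh-luc cells the highest were SOCS2, an inhibitor known from growth hormone signaling, with 19.5 ± 2.18 RPKM (SD, n = 3) and PIM1 with 18.4 ± 6.56 RPKM (SD, n = 3), and the libraries of these 2 genes overlapped. PIM3 (8.75 ± 0.279 RPKM) lay above PIM2 (7.67 ± 0.879 RPKM) without overlap, and both lay above the rest. SOCS6 (2.56 ± 0.596), SOCS1 (2.09 ± 0.815), SOCS4 (1.63 ± 0.196), SOCS5 (1.47 ± 0.153) and CISH (1.42 ± 0.0826 RPKM) followed, and each of these 5 overlapped the next in this order. SOCS3, the main inhibitor of IL-6 type signaling, was the lowest with 0.267 ± 0.111 RPKM, from 2 to 5 reads per library. In sh-IUR-5 cells PIM1 (32.8 ± 13.8 RPKM) and SOCS2 (30.2 ± 4.18 RPKM) again overlapped at the top, and SOCS3 (0.46 ± 0.21 RPKM) remained the lowest. These levels depend on how rows are read, since SOCS2 has 15 rows and no single row of it exceeded a group mean of 2.60 RPKM. By the row with the most reads, SOCS2 made 27.1% ± 3.90 of the summed RPKM of the 7 CISH and SOCS genes in sh-luc cells, close to SOCS1 with 29.3% ± 7.32, whereas by the sum over rows SOCS2 made 67.3% ± 5.23 (SD, n = 3).

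**Figure D1:**
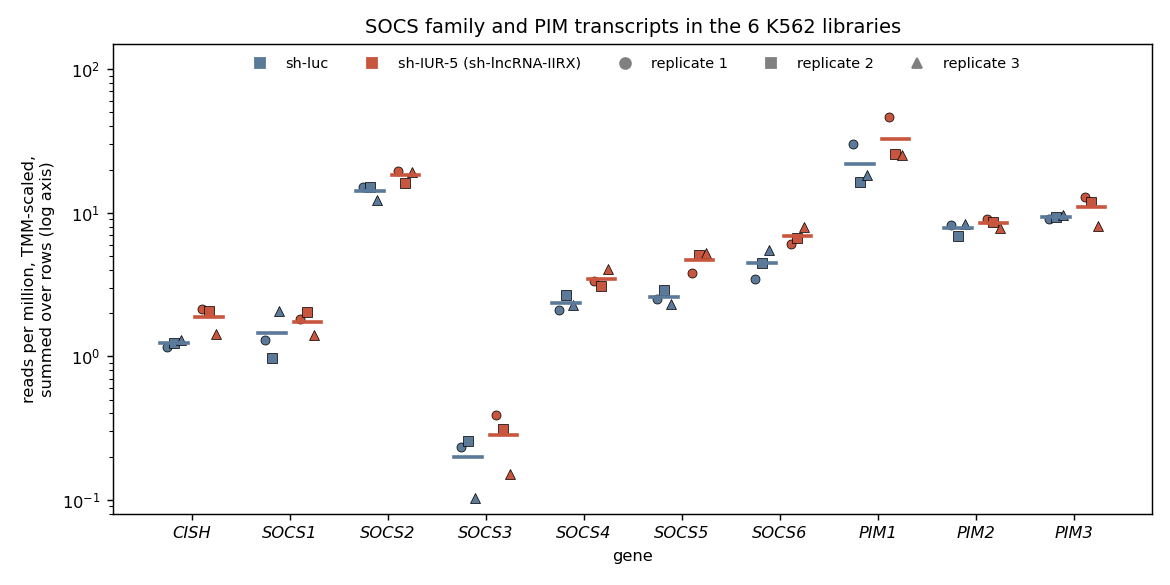
Level of each gene in each library as TMM-scaled CPM, summed over the rows of the gene, on a log axis (points: libraries, with shape for replicate number; bars: group means; blue: sh-luc; red: sh-IUR-5). For CISH, SOCS2, SOCS4, SOCS5 and SOCS6 every sh-IUR-5 library lies above every sh-luc library, and for PIM1 the libraries numbered 1 stand above the others in both groups.

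The second question was which genes of the set differed between sh-IUR-5 and sh-luc cells. Reads were summed over the rows of a gene, scaled by TMM (a scaling that sets the bulk of genes to no change) and given as CPM, the count relative to the scaled library total. CISH, SOCS2, SOCS4, SOCS5, SOCS6 and PIM1 were higher in sh-IUR-5 cells, by 1.29-fold (SOCS2) to 1.81-fold (SOCS5), and 0 of the 10 genes were lower (edgeR quasi-likelihood test, Benjamini-Hochberg adjusted p under 0.05 over all genes tested). Across all genes tested 15.9% were higher and 16.2% lower at this threshold. Rows without a symbol entered this fit as genes of their own, and 11556 of the 32188 genes tested had a symbol. SOCS3 had fewer than 10 reads per library on average and was left out of that fit. A fit of all 45358 genes with any read, such single rows included, held all 10 genes. In it 6 of the 10 were again higher, against 12.0% of all genes. Among genes with a symbol alone 20.9% were higher. The groups did not overlap for 5 of the 10 genes, all higher in sh-IUR-5 cells, against 23.2% of the genes tested. The median log2 fold change of the 9 genes tested was 0.57, beside a median of 0.02 for all genes tested.

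Among the SOCS proteins with a long N-terminal region, SOCS5, an inhibitor linked to IL-4 and EGF receptor signaling (chromosome 2, 46698952 to 46780245 in hg38, plus strand), had the largest log2 fold change of the 9 genes in the edgeR fit of TMM-scaled reads. Its level was 2.51, 2.89 and 2.32 CPM in the sh-luc libraries 1 to 3 and 3.83, 5.05 and 5.22 CPM in the sh-IUR-5 libraries 1 to 3. The groups did not overlap. The log2 fold change was 0.86 (SE 0.16, edgeR adjusted p = 0.000787), above that of 96.6% of the genes tested. The call was kept in each of the 6 fits that left out a library, with log2 fold changes from 0.76 to 1.00.

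SOCS6, known to bind the receptor tyrosine kinase KIT (chromosome 18, 70289045 to 70330199, plus strand), rose as well. It had 3.43, 4.49 and 5.52 CPM in sh-luc and 6.10, 6.73 and 7.91 CPM in sh-IUR-5 libraries, and every sh-IUR-5 library was above every sh-luc library. The log2 fold change was 0.63 (SE 0.16, edgeR adjusted p = 0.00619), and the call was kept when each library was left out. SOCS4, which is close to SOCS5 in structure (chromosome 14, 55027230 to 55049489, plus strand), had 2.09, 2.69 and 2.27 CPM in sh-luc and 3.33, 3.07 and 4.05 CPM in sh-IUR-5 libraries. The groups again did not overlap, with a log2 fold change of 0.57 (SE 0.17, edgeR adjusted p = 0.0154). This call was lost without sh-luc replicate 1, sh-luc replicate 3 or sh-IUR-5 replicate 3 (edgeR adjusted p = 0.0651, 0.0536 and 0.0807).

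Among the short SOCS proteins, SOCS2 (chromosome 12, 93569814 to 93583487, plus strand) had 15.0, 15.0 and 12.3 CPM in sh-luc libraries, against 19.5, 16.1 and 19.2 CPM with sh-IUR-5. The groups did not overlap, although the lowest sh-IUR-5 library lay close to the highest controls. The log2 fold change was 0.37 (SE 0.11, edgeR adjusted p = 0.0148), the smallest among the 6 genes that rose. It missed the threshold without sh-luc replicate 3 or sh-IUR-5 replicate 3 (edgeR adjusted p = 0.0931 and 0.0609).

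CISH, a classical STAT5 target in blood cells (chromosome 3, 50606489 to 50611774, minus strand), had 1.16, 1.24 and 1.29 CPM in sh-luc libraries, from 24 or 25 reads each. In the sh-IUR-5 libraries it had 2.13, 2.06 and 1.44 CPM, from 76, 53 and 38 reads. The third sh-IUR-5 library stood nearer to the control libraries than to the other two, but the groups did not overlap. The log2 fold change was 0.62 (SE 0.21, edgeR adjusted p = 0.035). Of the 6 fits that left out a library, the call held in the fit without sh-IUR-5 replicate 3, and without any of the other 5 libraries the edgeR adjusted p lay between 0.0703 and 0.12.

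SOCS1 and SOCS3, which inhibit JAK kinases directly, did not pass the test. SOCS1 (chromosome 16, 11254417 to 11256204, minus strand) had 1.30, 0.981 and 2.06 CPM in sh-luc and 1.82, 2.02 and 1.40 CPM in sh-IUR-5 libraries. The groups overlapped widely, with a log2 fold change of 0.28 (SE 0.24, edgeR adjusted p = 0.416). SOCS3 (chromosome 17, 78356778 to 78360077, minus strand) had 5, 5 and 2 reads in sh-luc and 14, 8 and 4 reads in sh-IUR-5 libraries. In the fit of all genes its log2 fold change was 0.55 with an SE of 0.56 (edgeR adjusted p = 0.538), so a difference was not detectable at this depth.

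**Figure D2:**
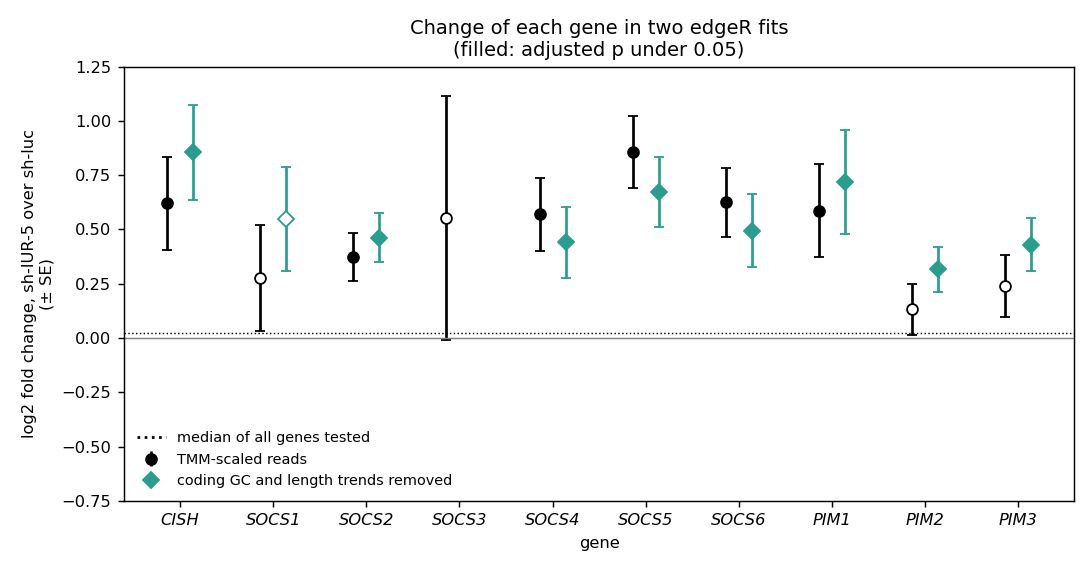
Log2 fold change of each gene, sh-IUR-5 over sh-luc, with its standard error, in the edgeR fit of TMM-scaled reads (black circles) and in the fit with trends on coding GC and length removed (green diamonds). Filled symbols have an adjusted p under 0.05, the dotted line is the median of all genes tested, and the SOCS3 value comes from the fit of all genes with any read. Every point lies above 0.

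Of the PIM kinases, PIM1 alone passed the test. PIM1, a proto-oncogene (chromosome 6, 37170152 to 37175428, plus strand), had 30.3, 16.4 and 18.5 CPM in sh-luc and 46.8, 25.5 and 25.4 CPM in sh-IUR-5 libraries. The groups overlapped, because sh-luc library 1 lay above sh-IUR-5 libraries 2 and 3. The log2 fold change was 0.59 (SE 0.22, edgeR adjusted p = 0.0466), just inside the threshold. By their labels, libraries 2 and 3 of a group carry a common series number that library 1 does not share. PIM1 in library 1 was 1.74 times the mean of libraries 2 and 3 in sh-luc cells and 1.84 times in sh-IUR-5 cells. Within the series, sh-IUR-5 cells had 1.55 times the sh-luc level in library 1 and 1.46 times in libraries 2 and 3. When this series was added to the edgeR model, the log2 fold change was 0.58 (edgeR adjusted p = 3.49e-08). With libraries 2 and 3 of each group summed it was 0.61 (edgeR adjusted p = 0.122), and with DESeq2 0.56 (adjusted p = 0.304), both without a call. The PIM1 value depended on single libraries. It was 0.22 without sh-IUR-5 replicate 1, 0.42 without sh-luc replicate 2 and 0.48 without sh-luc replicate 3, all without a call (edgeR adjusted p = 0.315, 0.189 and 0.175), and 0.91 without sh-luc replicate 1.

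PIM2 (chromosome X, 48913182 to 48919024, minus strand) had 8.17, 6.87 and 8.41 CPM in sh-luc and 9.12, 8.67 and 7.87 CPM in sh-IUR-5 libraries. The groups overlapped, with a log2 fold change of 0.13 (SE 0.12, edgeR adjusted p = 0.414). PIM3 (chromosome 22, 49960768 to 49964072, plus strand) had 9.09, 9.30 and 9.65 CPM in sh-luc and 12.9, 12.0 and 8.06 CPM in sh-IUR-5 libraries. Its first and second sh-IUR-5 libraries were above all controls and the third was below them. The log2 fold change was 0.24 (SE 0.14, edgeR adjusted p = 0.215), and without sh-IUR-5 replicate 3 it was 0.40 and passed (edgeR adjusted p = 0.0162).

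The isoform rows were then read singly. All 33 rows had a fold change above 0, with log2 values from 0.06 to 1.09. Rows of the same gene hold shared sequence and are not independent. Of 15382 pairs of equally long rows of a gene, each row with at least 60 reads in total, 0 had identical reads in all 6 libraries. This does not show how reads were divided among such rows. The 15 rows of SOCS2 were each shallow. Of the 33 rows 21 reached a mean of 1 RPKM, and 5 of these were higher and 0 lower past an adjusted p of 0.05, against 19.2% of all rows tested being higher. The 5 were both SOCS5 rows (NP_659198.1 with a log2 fold change of 1.09 and NP_054730.1 with 0.72), 2 of the 13 tested SOCS2 rows (XP_011537238.1 with 0.88 and XP_016875644.1 with 0.76) and the longer PIM1 row. The number of rows called was 2 without sh-luc replicate 3 and 2 without sh-IUR-5 replicate 1. The 4 SOCS4 rows and the 4 SOCS6 rows each lay under the minimum. In a fit of rows without a minimum 9 of the 33 were higher, against 10.7% of all rows, among them SOCS4 row XP_011534727.1 (log2 fold change 0.93, edgeR adjusted p = 0.0186) and SOCS6 rows XP_016881576.1 (0.73, edgeR adjusted p = 0.00858) and XP_016881575.1 (0.75, edgeR adjusted p = 0.0105). The CISH row with more reads (NP_659508.1, 777 bases) had a log2 fold change of 0.43 (SE 0.27, edgeR adjusted p = 0.232). The other (NP_037456.5, 828 bases) lay under the minimum and had 0.96 (SE 0.33, edgeR adjusted p = 0.0235) in the fit without it. These p-values come from different fits and do not compare the rows. A fit without a minimum can be less strict: for PIM1 summed over rows it gave an edgeR adjusted p of 3.24e-05, against 0.0466 in the main fit.

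The rows of SOCS2 fell into length classes, which are described here without a test. The 5 longest rows, of 732 bases, together had 8.59 ± 1.19 RPKM in sh-luc and 11.8 ± 0.568 RPKM in sh-IUR-5 cells (SD, n = 3), and their log2 fold changes ran from 0.06 to 0.41. The 6 shortest rows, of 597 bases, had 8.18 ± 1.65 and 13.3 ± 2.82 RPKM, with log2 fold changes from 0.38 to 0.72. The 4 rows of 615 to 669 bases had 2.76 ± 0.522 and 5.11 ± 1.01 RPKM, with log2 fold changes from 0.31 to 0.88. The longest and the shortest rows thus held like levels in sh-luc cells, and RPKM was higher in sh-IUR-5 cells in each class.

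The 2 SOCS5 rows have the same length, 1611 bases. NP_054730.1 had 30, 30 and 25 reads in sh-luc and 73, 54 and 70 reads in sh-IUR-5 libraries, and NP_659198.1 had 24, 26 and 20 against 64, 76 and 68 reads. Neither row overlapped between the groups.

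The longer PIM1 row (NP_001230115.1, 1215 bases) had 17.6 RPKM in sh-IUR-5 and 9.55 RPKM in sh-luc cells, with a log2 fold change of 0.69 (SE 0.22, edgeR adjusted p = 0.0184). The shorter row (NP_002639.1, 942 bases) had 15.2 against 8.89 RPKM, with a log2 fold change of 0.58 (SE 0.22, edgeR adjusted p = 0.0511). Both rows had nearly the same standard error, and the gap between their fold changes was smaller than either.

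Shares within each family were compared next, since a share within a library does not depend on the scaling between libraries. By the row with the most reads, PIM1 made 36.2% ± 6.82 of the summed PIM RPKM in sh-luc cells and 43.3% ± 6.57 in sh-IUR-5 cells (SD, n = 3; two-sided exact permutation test, p = 0.3). PIM2 went from 29.7% ± 2.29 to 25.8% ± 4.28 (exact p = 0.2) and PIM3 from 34.2% ± 5.01 to 30.9% ± 3.98 (exact p = 0.5). Among CISH and the SOCS genes, the SOCS4 share was 5.24% ± 1.82 in sh-luc and 7.27% ± 0.867 in sh-IUR-5 cells without overlap, at p = 0.1 in the exact permutation test. This is the lowest p within reach of 3 libraries a group. By RPKM summed over rows the SOCS4 share was 5.62% ± 0.576 and 6.10% ± 0.656 with overlap (exact p = 0.5), and by summed reads per summed length the exact p was 0.6. The other 6 shares had exact p from 0.3 to 0.9, and adjusted over the 10 shares every p was at least 0.6. No difference in family composition was thus resolved, in a design that cannot reach 0.05.

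**Figure D3:**
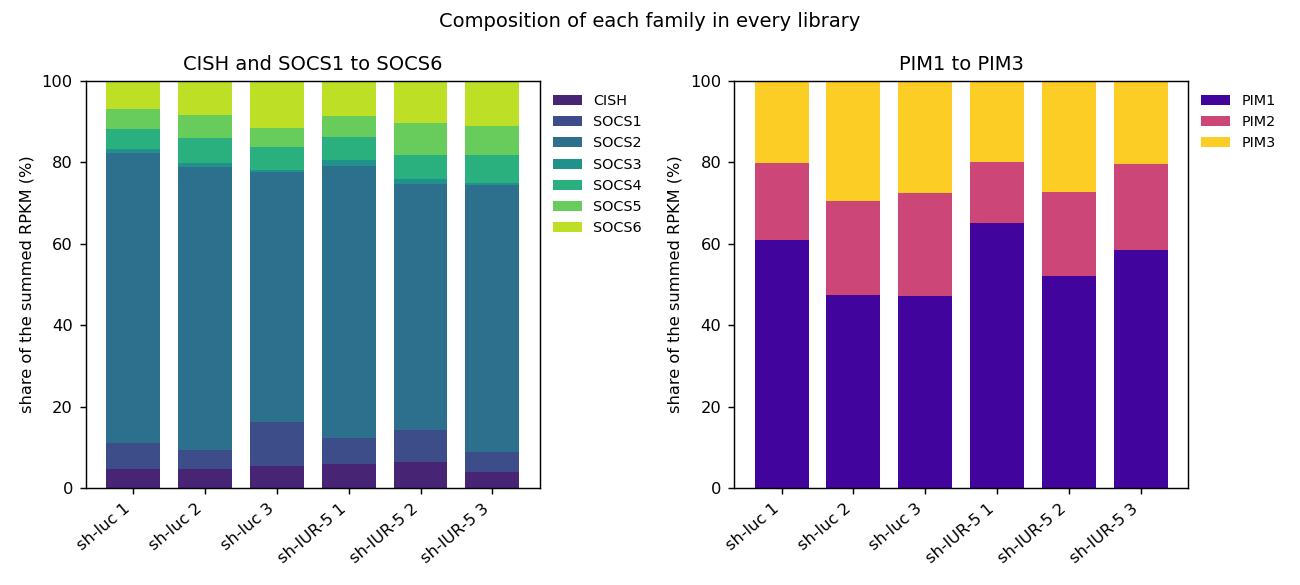
Share of each gene in the summed RPKM of its family in every library, in percent, by RPKM summed over the rows of a gene (left: CISH and SOCS1 to SOCS6; right: PIM1 to PIM3). SOCS2 takes 60.4% to 71.2% of the left bars, and PIM1 takes 47.2% to 65.2% of the right bars, with its largest share in each group in library 1.

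Fold changes in these libraries moved with base composition and length across all genes. Over 11428 genes the Spearman correlation of the log2 fold change with the GC content of the coding sequence was -0.25 and with coding length 0.32, a description over genes that share the same 6 libraries. Of genes with a coding GC of at most 45%, 33.3% were higher in sh-IUR-5 cells, against 7.67% of genes above 60%. SOCS4 (40.4%), SOCS5 (43.7%), SOCS6 (48.9%) and SOCS2 (50%) lay on the AT-rich side. PIM1 (59.7%), PIM2 (just above 60%), CISH (61.8%), SOCS3 (65.0%), PIM3 (69.1%) and SOCS1 (71.4%) lay on the GC-rich side, where the median log2 fold change of all genes was -0.15 above 60%. When each library's trends on coding GC and length were removed, the log2 fold changes of SOCS4, SOCS5 and SOCS6 were 0.44, 0.67 and 0.49, and those of CISH and PIM1 were 0.85 and 0.72. In that fit 8 of the 9 genes were higher, against 19.5% of all genes tested. PIM2 (0.32, edgeR adjusted p = 0.0299) and PIM3 (0.43, edgeR adjusted p = 0.0163) passed there, and SOCS1 (0.55, edgeR adjusted p = 0.0891) did not.

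**Figure D4:**
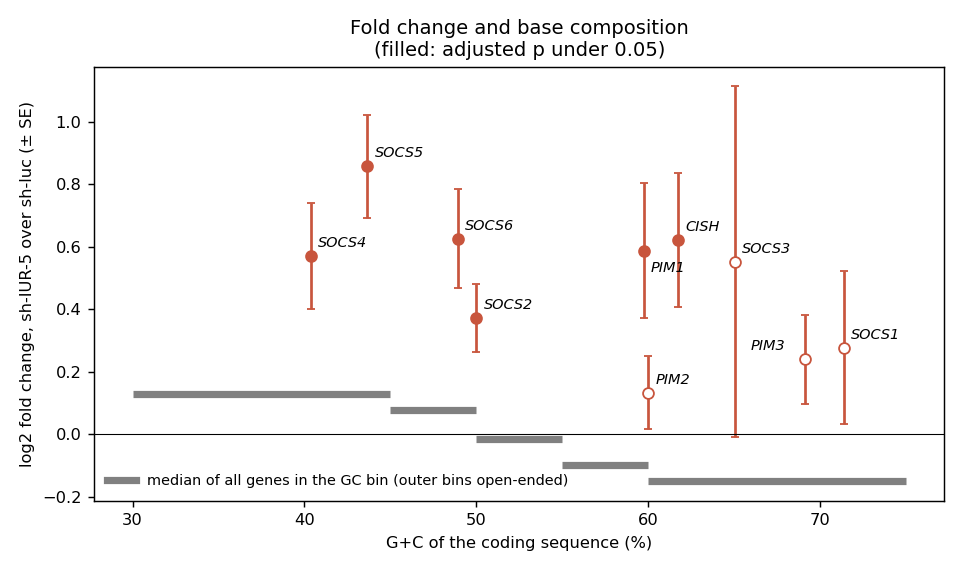
Log2 fold change, sh-IUR-5 over sh-luc, with its standard error, against the G+C content of the coding sequence in percent (red: the 10 genes, filled where the adjusted p is under 0.05; grey bars: median of all genes in a GC bin). All 10 genes lie above the median of their bin, which falls from 0.13 in the lowest bin to -0.15 in the highest.

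Scaling and the choice of tool also set how many of the 10 genes were called. With total reads in place of TMM factors the median log2 fold change of all genes was 0.27, and 8 of the 9 genes were higher, against 33.9% of all genes. Relative to that median all 9 remained higher. DESeq2 called SOCS2, SOCS5 and SOCS6, 3 of the 9, against 12.3% of the genes it gave an adjusted p.

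The genes around the 2 families were described from lists of pathway members, whose counts stand beside the 20.9% of genes with a symbol, and 15.9% of all genes tested, that were higher, and the 16.2% of all genes tested that were lower. The 16.2% includes rows without a symbol. In a fit of the 11428 genes with a GC value alone, 2604 were higher and 2395 lower. With coding GC and length trends removed, 2234 of 11428 genes (19.5%) were higher and 2447 lower, and list counts from that fit stand beside these. Upstream, 3 of the 11 tested receptors were higher and 1 lower, with a list median of 0.20, a share near that of all genes. The receptor subunit shared by IL-6 type cytokines, IL6ST, rose from 0.786 to 3.05 RPKM (log2 fold change 1.57, SE 0.20), and its partner LIFR rose from 1.53 to 4.60 RPKM (log2 fold change 1.35, SE 0.11). KIT rose from 0.214 to 0.622 RPKM (1.31, SE 0.29). CSF2RA, a subunit of the GM-CSF receptor, fell by 0.91 on the log2 scale (SE 0.08), from 60.7 to 38.3 RPKM. GHR, PRLR and CSF2RB, receptors that signal through STAT5, were listed at 0 in all libraries, and 6 of the 17 receptors in all were under the minimum.

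Of the JAK kinases and STAT factors 6 of 9 tested were higher and 0 lower, with a median of 0.29. They included JAK1 (log2 fold change 0.85, SE 0.08), JAK2 (0.61, SE 0.08) and STAT5B (0.45, SE 0.09). Other brakes on this pathway had 7 of 12 genes higher and 0 lower, with a median of 0.38. These included the ubiquitin ligase CBL (0.95, SE 0.18), the phosphatase PTPN1 (0.45, SE 0.09) and the STAT inhibitors PIAS1 (0.45, SE 0.10) and PIAS3 (0.48, SE 0.11). In the fit without GC and length trends 4 of 9 JAK and STAT genes and 5 of 12 brakes were higher, and 1 brake, PTPN2, was lower. PIAS1 had 0.24 there and no longer passed (edgeR adjusted p = 0.0572).

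The partners through which the SOCS box ubiquitinates its targets behaved differently among themselves, with 2 of 9 higher and 6 lower and a median of -0.34. The adaptor ELOB fell by 0.70 on the log2 scale (SE 0.08) and NEDD8, the modifier that activates cullins, fell by 0.55 (SE 0.09). The scaffolds CUL2 (0.48, SE 0.09) and CUL5 (0.44, SE 0.10) rose. The rows of these partners had a median length of 404 bases. Once GC and length trends were removed 2 were higher and 2 lower, each a share near that of all genes in that fit. CUL2 (0.31) and CUL5 (0.32) were then still higher, and ELOB (-0.30) and NEDD8 (-0.22) still lower.

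**Figure D5:**
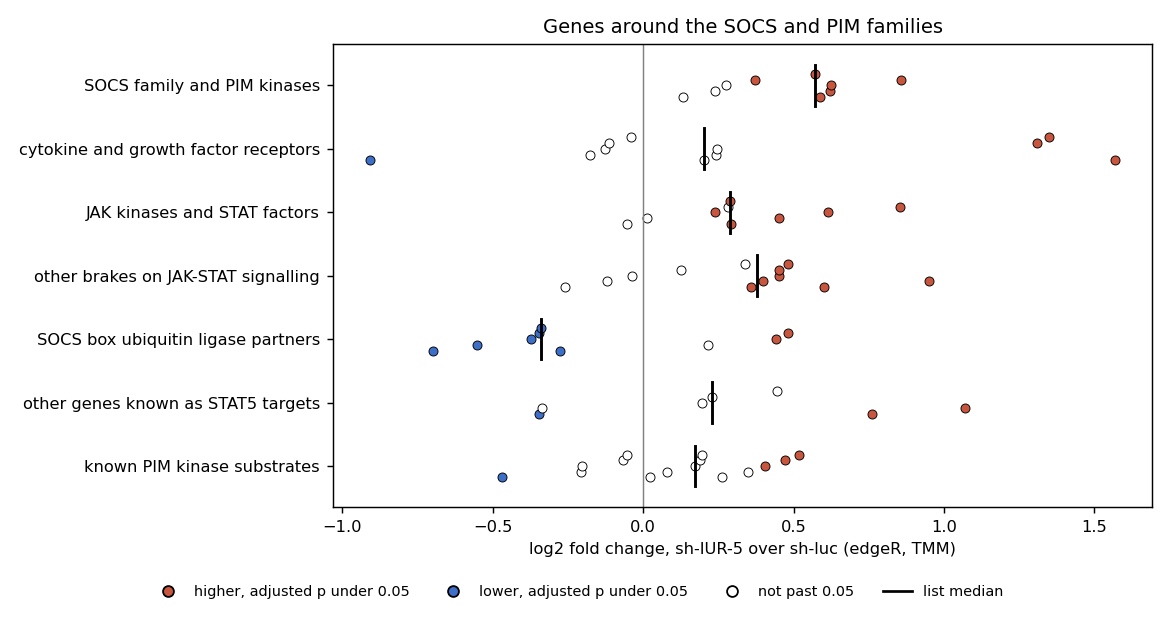
Log2 fold change, sh-IUR-5 over sh-luc, of every tested gene in 7 lists (points: genes; red and blue: higher and lower at an adjusted p under 0.05 in edgeR; black bars: list medians). The SOCS and PIM genes have the highest median, 0.57, and the SOCS box ubiquitin ligase partners the lowest, -0.34.

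Of other genes known as STAT5 targets 2 of 7 tested were higher and 1 lower, with a median of 0.23, a share near that of all genes. TFRC, the transferrin receptor, rose by 1.07 on the log2 scale (SE 0.08), and the study singled it out from these same libraries. MCL1, an antiapoptotic BCL2 family member, rose by 0.76 (SE 0.09), and the cyclin CCND2 fell by 0.34 (SE 0.12). Among known PIM substrates 3 of 15 were higher and 1 lower, with a median of 0.17, again a share near that of all genes. The proapoptotic BAD fell by 0.47 (SE 0.12), while the cell cycle inhibitor CDKN1B (0.40, SE 0.10), the transcription factor FOXO3 (0.52, SE 0.17) and the phosphatase CDC25A (0.47, SE 0.16) rose. With GC and length trends removed BAD had a log2 fold change of -0.10 (edgeR adjusted p = 0.456), CCND2 one of -0.17 (edgeR adjusted p = 0.326) and CDC25A one of 0.38 (edgeR adjusted p = 0.119), and none of these 3 passed. In that fit 4 of the PIM substrates were higher and 2 lower. Likewise 4 of 7 STAT5 targets were higher and 0 lower, and MYC (0.27, edgeR adjusted p = 0.0249) and BCL2L1 (0.45, edgeR adjusted p = 0.0247), a further antiapoptotic gene, were among them.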

How the data were processed

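RNA-seq reads of 3 sh-luc and 3 sh-IUR-5 libraries of K562 cells were counted by the authors on RefSeq protein accessions of hg38. The submitters' processing notes name CASAVA 1.8, Trimmomatic 0.32, Bowtie2 2.1.0 and SAMtools 0.1.19. The authors deposited read counts per row without normalization, and RPKM, which equalled reads per row length and library total in every row. How reads were divided among isoform rows is not given in the sources used here. The authors' deposited comparison table (pooled reads and RPKM, fold changes, p-values and q-values) was not used.

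Accessions were matched to symbols with the RefSeq gene list of GRCh38.p14 for 64.7% of the rows (84.4% of the reads). Reads of rows without a match may belong to any gene. Reads were summed per gene, and rows without a symbol stayed single and were counted as genes. The 32188 genes with a mean of at least 10 reads per library, 11556 of them with a symbol, were tested. The test was edgeR 4.0.16 (TMM, quasi-likelihood, R 4.3.3). Adjustment was by Benjamini-Hochberg over all genes, with a threshold of 0.05. Single rows with a mean of at least 1 RPKM were tested likewise. DESeq2 1.42.0 and limma 3.58.1 were alternatives. On simulated counts with 200 of 32188 genes changed, edgeR recovered 128 (82 of 100 changed 2-fold) with 6 false calls. The simulation used the same dispersion for every gene and no series, GC or length effect. It therefore does not give the rate of false calls in the measured libraries. In the measured libraries 10327 genes were called, and the share of false calls among them was not tested. The row lengths are coding lengths (99.8% multiples of 3), and gene positions are from GENCODE 44. The 3 libraries of a group are described as independent, and p-values measure the spread between them.

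Genes named are the 10 genes with their rows and, from each list, the 4 with the smallest adjusted p among those past the threshold. The result for 1 gene that this rule names is not reported here. PTPN2, MS4A1, MYC, BCL2L1, GHR, PRLR and CSF2RB were named after their values were seen. The members, lists and tests were chosen with earlier results of these data known. Trends on coding GC and RPKM summed over rows were alternatives chosen after seeing the data.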

Additional observations from a re-analysis of the deposited data

How the results depend on the processing

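The log2 fold changes of the 9 genes tested stayed above 0 in every alternative run, and SOCS5 and SOCS6 stayed past the threshold wherever they were tested. The number of the 10 genes called, 6, was 3 with DESeq2 and 2 to 5 when each library was left out, with 2 in the fit without sh-luc replicate 3. CISH missed the threshold in 8 of 23 alternatives, PIM1 in 8, SOCS4 in 4 of 22 and SOCS2 in 3 of 23. SOCS5 did not keep the largest log2 fold change of the 9 genes in every fit: with GC and length trends removed CISH had 0.85 and SOCS5 0.67, and by the row with the most reads SOCS4 had 0.94. Read by the row with the most reads alone, SOCS2 had a log2 fold change of 0.20 (edgeR adjusted p = 0.479) and CISH 0.38 (edgeR adjusted p = 0.319). With libraries 2 and 3 of each group summed, CISH (edgeR adjusted p = 0.0573) and PIM1 (edgeR adjusted p = 0.122) were not called. Leaving out a library gave 7941 to 9680 genes and 11215 to 13582 single rows called, against 10327 and 14256. Among the genes with a GC value alone, fewer by construction, 4999 were called without a trend removed, 5169 with the GC trend removed, 4681 with GC and length trends removed, and 5989 with these and the replicate block. TMM scaling gave 5111 higher and 5216 lower calls, total reads gave 10906 and 2150, and limma on log2(RPKM + 0.1) gave 9863 and 2088.

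Deviations from the group means correlated at 0.26, 0.066 and 0.019 in the pairs of libraries numbered 1, 2 and 3, so the numbers were not taken as pairs. Pairs of a library numbered 1 with one numbered 2 or 3 correlated at -0.19 to -0.080, and pairs of 2 with 3 at 0.15 and 0.072. The series in the labels was not a term in the main fit. With it 13242 genes and the same 6 of the 10 genes were called. With the replicate block 12555 genes, 16831 single rows and the same 6 of the 10 genes were called, so the block changed no call among them, and with the block and the length trend removed 7 of the 10. The single rows of the 10 genes that were called, 5, were 2 with DESeq2, 9 without a minimum, 9 with the replicate block and 2 to 7 when each library was left out. The difference between groups in each of the 10 family shares changed by less than 1 SD between libraries (the larger of the 2 groups) when rows were read in another way or a library was left out, although the SOCS2 share itself depended on the reading of rows. Most of these SDs exceeded the differences, so this does not show that the differences were stable. The CISH difference changed sign, from -0.51 percentage points to 0.93 by summed reads per summed length and 0.56 by RPKM summed over rows.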
